A study of Mus musculus with 2 samples.

Results

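Clear Tle4cKO-only peaks were stretches of accessible chromatin that were called in colonic macrophages lacking Tle4 and had no counterpart nearby in the WT list. They were defined as peaks of the Tle4cKO list on chromosomes 1 to 19 with a summit pileup of 18 or more and no WT peak within 500 bp of either edge. The pileup is the height of the stacked fragments at the peak's summit, as the authors deposited it. The rule found 956 such peaks among 128129 Tle4cKO peaks in all. They were 1.40% of the 68366 Tle4cKO peaks on these chromosomes with a pileup of 18 or more. Of the others, 66887 overlapped a WT peak and 523 had a WT peak up to 500 bp away. The members were chosen by their pileup and their distance to WT, so these values describe them and are not evidence of a difference between genotypes.

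Accessibility was profiled by ATAC-seq, which marks open DNA by the insertions of the Tn5 transposase. The cells were CD64-positive, Ly6C-low, Siglec-F-negative macrophages from the colon of male C57BL/6 mice aged 18.9 weeks. One group carried Lyz2-Cre alone (WT), and the other carried Lyz2-Cre and floxed Tle4 alleles (Tle4f/f Lyz2-Cre, Tle4cKO). Both groups therefore carried the Cre recombinase, which is driven by the lysozyme 2 gene and acts in macrophages, monocytes and neutrophils. Each group was 1 library of cells pooled from 2 mice, so that no value has a replicate check and no test between genotypes was possible. All 11 macrophage genes checked, among them Csf1r, Cx3cr1, Adgre1 and C1qa, had a peak at a gene end in both lists. Their highest gene-end pileups were 55 to 202 in WT and 33 to 166 in Tle4cKO. Of the genes gated against, Siglecf had a gene-end pileup of 101 in WT and 30 in Tle4cKO, Ly6c2 had 32 and 21, and Ly6c1 had no such peak.

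TLE4 is a Groucho-type corepressor. It does not bind DNA by itself and is brought to enhancers and promoters by factors such as RUNX, HES and TCF/LEF proteins, where it recruits histone deacetylases. Macrophage enhancers are set up mainly by PU.1 with C/EBP, AP-1, IRF and RUNX factors, and many of them lie inside genes or far from any gene start.

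Promoter windows from RefSeq (GRCm38.p6, the assembly behind mm10) ran from 250 bases before to 50 bases after a gene's start. Members overlapped 6 of 20085 such windows of protein-coding genes, and 5 members were involved. The table used has no window for some genes, among them all those of 1 autosome, so this count is incomplete. Below are the 250 bases before the start for the 4 genes whose upstream part was reached, 5′ to 3′ on the gene's strand, because they show how far each member extended towards the start. Capitals mark the bases inside the member.
Rnf146: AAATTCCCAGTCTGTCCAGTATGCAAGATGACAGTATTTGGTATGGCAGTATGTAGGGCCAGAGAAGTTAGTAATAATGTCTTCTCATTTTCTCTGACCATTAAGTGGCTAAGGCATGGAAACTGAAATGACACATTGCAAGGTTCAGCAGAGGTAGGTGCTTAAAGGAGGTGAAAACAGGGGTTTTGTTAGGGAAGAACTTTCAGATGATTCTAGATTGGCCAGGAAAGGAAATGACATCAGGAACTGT
Klri1: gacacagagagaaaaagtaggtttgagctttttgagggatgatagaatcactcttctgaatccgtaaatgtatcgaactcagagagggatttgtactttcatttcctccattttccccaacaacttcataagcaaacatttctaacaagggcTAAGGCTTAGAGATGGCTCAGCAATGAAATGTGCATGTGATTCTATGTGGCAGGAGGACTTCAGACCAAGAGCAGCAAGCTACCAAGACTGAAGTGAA
Duoxa2: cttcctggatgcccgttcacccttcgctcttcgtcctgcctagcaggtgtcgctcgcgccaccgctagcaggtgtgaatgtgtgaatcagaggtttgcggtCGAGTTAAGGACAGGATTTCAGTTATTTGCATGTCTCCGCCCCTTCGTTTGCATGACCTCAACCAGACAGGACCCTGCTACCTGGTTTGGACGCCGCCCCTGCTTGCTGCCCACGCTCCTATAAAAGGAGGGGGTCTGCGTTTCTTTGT
Mst1: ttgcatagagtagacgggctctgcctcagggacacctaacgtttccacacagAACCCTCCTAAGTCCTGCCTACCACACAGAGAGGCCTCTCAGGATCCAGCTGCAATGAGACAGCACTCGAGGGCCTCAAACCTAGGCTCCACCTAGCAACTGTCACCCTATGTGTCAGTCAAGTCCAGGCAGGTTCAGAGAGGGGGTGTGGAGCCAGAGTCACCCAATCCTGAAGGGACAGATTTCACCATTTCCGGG
The Rnf146 sequence (chr10:29357714-29357963, minus strand) lay wholly inside a member of pileup 34 and 469 bp width. This start lies inside the gene. Rnf146 encodes a ubiquitin ligase that acts on proteins modified by poly-ADP-ribose, such as axin. The Klri1 sequence (chr6:129717133-129717382, minus strand), also at a start inside its gene, was covered for its last 98 bases by a member of pileup 30. Klri1 encodes a lectin-like receptor of natural killer cells. At Duoxa2 (chr2:122298650-122298899, plus strand), which encodes the maturation factor of the oxidase DUOX2, the last 149 bases lay inside a member of pileup 20. At Mst1 (chr9:108080186-108080435, plus strand), which encodes macrophage-stimulating protein, the last 198 bases lay inside a member of pileup 18. The fifth member reached only the bases after the shared start of Apoc4 and Gm44805.

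These windows were searched on both strands for TGANTCA (AP-1), GAGGAAGT (PU.1), TGTGGT (RUNX), TTGCGCAA (C/EBP) and CTTTGATC (TCF/LEF). Among the 6 windows, 1 held the AP-1 letters, 1 held the RUNX letters, and the other 3 motifs had 0 matches. The AP-1 match, which reads as the motif on either strand, began 168 bases before the start of Duoxa2 and lay outside the member. The RUNX letters occurred in the Mst1 window on the minus strand 178 bases before the start, inside the member, and on the plus strand 7 bases after it. Of all 20085 windows, 7.06% held the AP-1 letters, 14.8% the RUNX letters, 3.18% the PU.1 letters, 0.871% the TCF/LEF letters and 0.219% the C/EBP letters. In the 11410 windows with a Tle4cKO peak of pileup 18 or more, these shares were 4.87%, 12.2%, 3.43%, 0.640% and 0.316%. A match says only that these letters are present.

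Members also covered microRNA hairpins at 2 genes, whose mature sequences from RefSeq are given with the seed (bases 2 to 8) in capitals. They were singled out after the overlap was seen.
mmu-miR-5129-5p: aUGUGGGGgcauugguauuuuc
mmu-miR-5129-3p: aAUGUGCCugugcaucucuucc
mmu-miR-196b-5p: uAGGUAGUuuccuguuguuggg
mmu-miR-196b-3p: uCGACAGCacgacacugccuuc
The 78 bases of the Mir5129 hairpin (chr2:45023100-45023177, minus strand) lay wholly inside a member within Zeb2, which had a pileup of 26. Of the 85 bases of Mir196b (chr6:52230081-52230165, minus strand), 54 lay inside a member of pileup 19 between Hoxa9 and Hoxa10, transcription factor genes of the HOXA cluster. The 4 arms have 4 different seeds. Accessible DNA at a hairpin does not measure the microRNA, and microRNA levels were not measured here.

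The members were mostly of modest height. Their pileups ran from 18 to 99 with a median of 23, and 241 of them (25.2%) had 18 or 19. Another 246 (25.7%) reached 30, and 43 (4.50%) reached 50. The rule's share fell steeply with height: 4.93% of Tle4cKO peaks with a pileup of 18 or 19 were members, 1.98% of those of 25 to 34 and 0.142% of those of 50 or more. Across the pileup threshold the counts fell in uneven steps. There were 266 peaks away from WT at a pileup of 16, 177 at 17, 148 at 18, 93 at 19 and 91 at 20. The median width was 323 bp at 17 and 328 bp at 18. By distance the counts were similar on both sides of the limit, with 164 peaks having their nearest WT peak at 251 to 500 bp and 174 at 501 to 750 bp.

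Although no WT peak lay within 500 bp, WT peaks were close by. The median distance to the nearest was 1326 bp (quartiles 848 and 2102), and 263 members (27.5%, 95% Wilson interval 24.8% to 30.4%) were more than 2 kb from one. Beyond 5 kb there were 8, and beyond 50 kb there were 2. The most remote member lay inside Sema5a on chromosome 15 (32328510 to 32329015), with a pileup of 18, 82111 bp from WT. The next lay inside Agtpbp1 on chromosome 13 (59456043 to 59456292), also with a pileup of 18, at 52088 bp. The nearest WT peak was usually the higher peak, with a median pileup of 74 (quartiles 37.8 and 123). It exceeded the member's own pileup in 846 of 956 cases (88.5%, 86.3% to 90.4%). Pileups were higher in WT in general, with a median of 28 over the WT list and 20 over the Tle4cKO list, and no scaling between them is recorded.

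**Figure D1:**
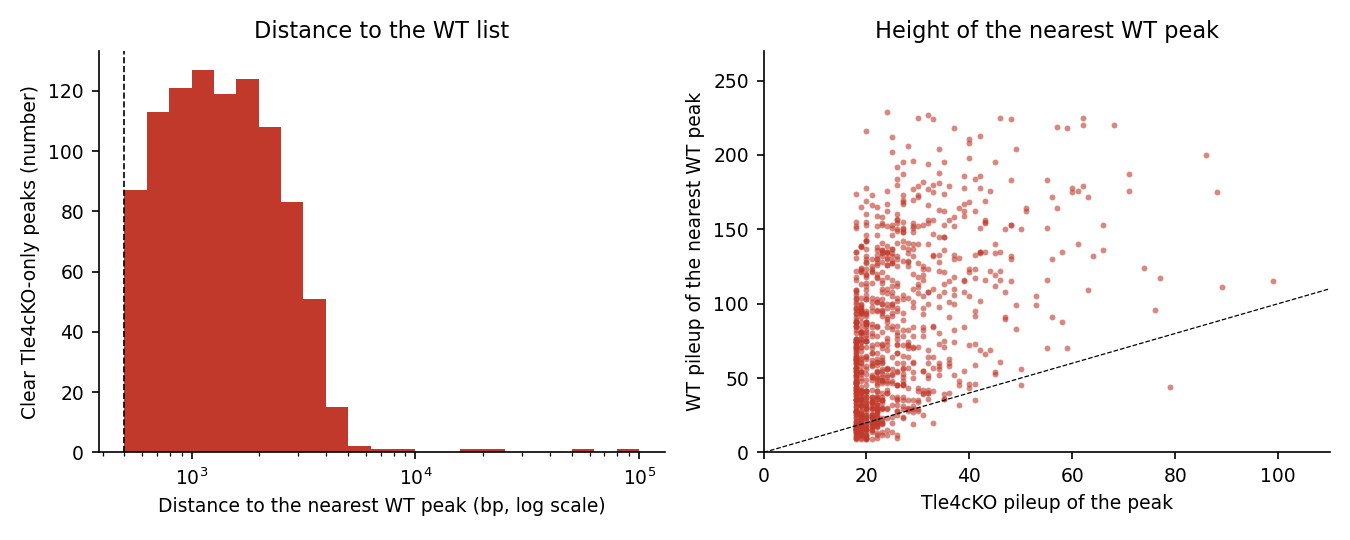
Left, the number of clear Tle4cKO-only peaks by distance to the nearest WT peak (bp, log scale), with the 500-bp limit dashed. Right, the WT pileup of that nearest peak against the member's own Tle4cKO pileup, with equality dashed: 846 of 956 points lie above the line.

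In width the members differed from other Tle4cKO peaks, also within classes of like height. Their median width was 270 bp (quartiles 216 and 430), against 859 bp (653 and 1208) for Tle4cKO peaks that overlapped a WT peak. Those peaks were mostly higher, with a median pileup of 44 against 23. Of the members, 424 (44.4%, 41.2% to 47.5%) were at most 250 bp wide, and 89 (9.31%, 7.63% to 11.3%) had 200 bp, the smallest width in either list. Among overlapping peaks these shares were 3.22% and 0.411%. At a pileup of 18 or 19, 11.2% of members and 1.26% of overlapping peaks had 200 bp. Shared peaks widened with height, from a median of 617 bp at a pileup of 18 or 19 to 1130 bp at 50 or more. Members did not, with 294 bp in the lowest class and 253 bp in the highest. The 523 peaks with a WT peak up to 500 bp away were also narrow, with a median of 246 bp. The rule measures distance from the edges, so a wider peak passes it less readily and overlaps a WT peak more readily. How much of the width difference the definition sets was not tested.

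Members lay in crowded surroundings. Within 10 kb of a member's summit there was a median of 4 other Tle4cKO peaks, against 3 around overlapping peaks. At least 5 were found around 408 members (42.7%, 39.6% to 45.8%), against 17.7% of overlapping peaks weighted to the members' pileup classes. A higher Tle4cKO peak lay within 10 kb of 936 members (97.9%, 96.8% to 98.6%) and of 64.5% of overlapping peaks weighted in the same way. The highest such neighbour had a median pileup of 96 around members and 58 around overlapping peaks. For members of pileup 50 or more it was 156, against 72 around overlapping peaks of that class. For 816 members (85.4%, 83.0% to 87.5%) the nearest other Tle4cKO peak was itself shared with WT. Peaks of one list away from the other shared this trait. Of the 2363 clear WT-only peaks with a pileup of 25 or more, described further on, 97.0% had a higher WT peak and 31.8% (29.9% to 33.7%) at least 5 other WT peaks within 10 kb. Of the 523 Tle4cKO peaks with a WT peak up to 500 bp away, 99.0% had a higher Tle4cKO peak and 47.4% at least 5 others. Narrow width, strong neighbours and absence from the WT list thus went together, and the part of the neighbours in the result was not tested. A WT peak lower than the member lay within 10 kb of 428 members (44.8%, 41.6% to 47.9%). The share of overlapping peaks with such a WT peak was 72.1%, or 62.0% weighted to the members' pileup classes. For overlapping peaks this count includes the WT peak that they overlap. The rule bars such a peak for members, so the difference is partly set by the definition.

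**Figure D2:**
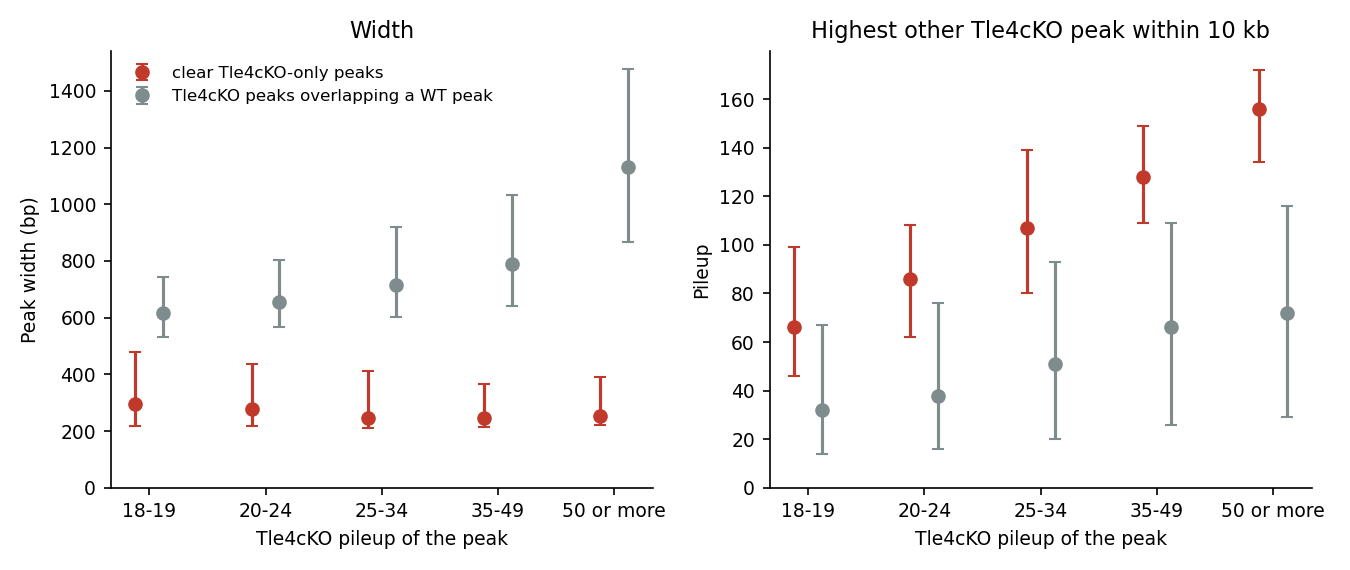
Peak width in bp (left) and pileup of the highest other Tle4cKO peak within 10 kb (right), by pileup class, for clear Tle4cKO-only peaks (red) and Tle4cKO peaks overlapping a WT peak (grey). Points are medians and bars run from the lower to the upper quartile of the peaks. Red widths stay between 248 and 294 bp while grey widths increase to 1130 bp.

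The shared peaks beside members had about the same ratio of Tle4cKO to WT pileup as shared peaks elsewhere. Pairs of peaks that were each other's highest overlap were given a log2 ratio of Tle4cKO to WT pileup relative to pairs of like height. Over the 3128 pairs within 10 kb of a member the median was 0.010 (quartiles -0.115 and 0.155), and 51.8% were above 0. Over all 90395 pairs it was 0 (-0.172 and 0.163), and 47.4% were above 0. Over the 7187 pairs beside clear WT-only peaks it was 0.005, and 50.7% were above 0. These ratios come from the contrast that chose the members and are given as a description.

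Members lay mainly inside genes and seldom at their ends. A gene end here is the upstream or the downstream end of an annotated gene, so gene-end shares are not promoter shares. Of the 956, 588 (61.5%, 58.4% to 64.5%) lay in the body of a protein-coding gene and 313 (32.7%, 29.8% to 35.8%) outside such genes. The other 55 (5.75%, 4.45% to 7.41%) lay within 1000 bp of an annotated end of one. Overlapping Tle4cKO peaks had 44.8% in gene bodies, 35.1% outside and 20.1% at gene ends. Weighted to the members' pileup classes, these became 50.3%, 39.9% and 9.81%. Placing each peak by its summit, which removes the effect of width, gave 62.2% in gene bodies and 4.50% at gene ends for members, against weighted shares of 51.4% and 8.06%. The members' intervals exclude the weighted shares on both scales. In the highest class, of pileup 50 or more, 6.98% (2.40% to 18.6%) of 43 members and 33.3% of overlapping peaks lay at gene ends. Members outside protein-coding genes had a median distance of 11119 bp to the nearest one, and 56 of the 313 were more than 50 kb away.

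The same rule applied to the WT list gave a larger set. At a pileup of 18 or more, 4893 of 83292 WT peaks (5.87%) had no Tle4cKO peak within 500 bp. Since the same pileup is not the same height in both lists, a WT minimum of 25 was also used, which kept 54.6% of the WT list as 18 kept 54.3% of the Tle4cKO list. It left 2363 of 68799 (3.43%). These clear WT-only peaks were wider than the members, with a median of 426 bp (quartiles 230 and 546). They too were rare at gene ends, with 7.11% (6.14% to 8.22%), an interval that overlaps the members'. In gene bodies lay 55.0% (53.0% to 57.0%), below the members' share, and the intervals do not overlap. The 956 highest WT-only peaks had 56.1% (52.9% to 59.2%) in gene bodies, whose interval overlaps that of the members.

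**Figure D3:**
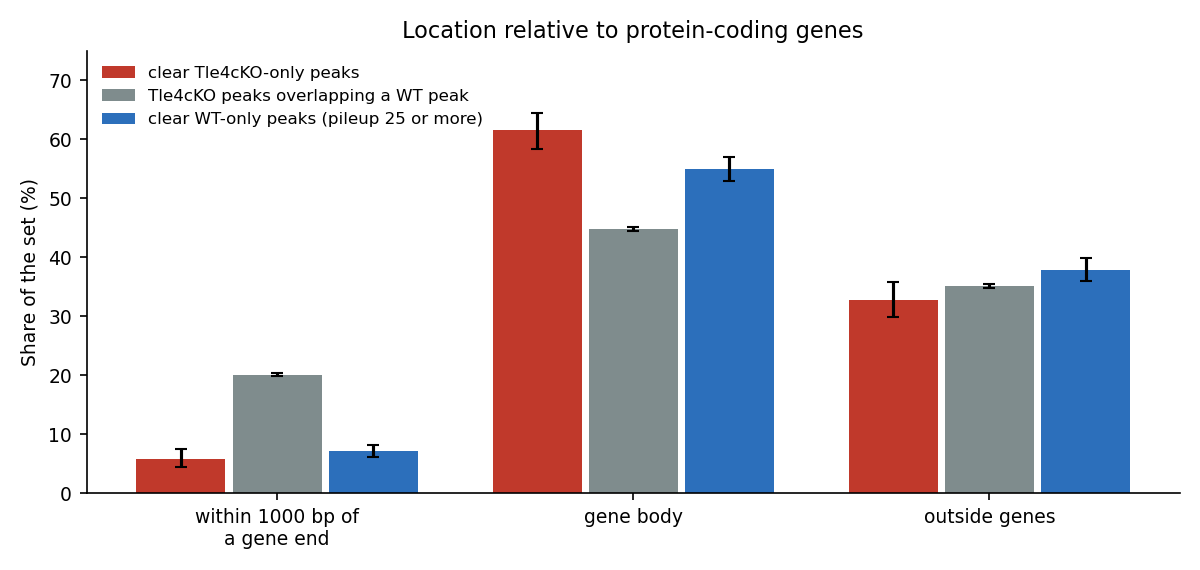
Share of peaks (%) at gene ends, in gene bodies and outside protein-coding genes for 956 clear Tle4cKO-only peaks (red), 66887 Tle4cKO peaks overlapping WT (grey) and 2363 clear WT-only peaks (blue). Bars show 95% Wilson intervals, which cover counting error only, and the red gene-end share of 5.75% is below the grey 20.1%.

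Every autosome held members. Their share of the Tle4cKO peaks with a pileup of 18 or more was highest on chromosome 18, with 42 of 2068 (2.03%, 1.51% to 2.73%), and on chromosome 6, with 75 of 3965 (1.89%, 1.51% to 2.36%). It was lowest on chromosome 13, with 30 of 3291 (0.912%, 0.639% to 1.30%). Those on chromosomes 18 and 6 were above the share of 1.40% over all chromosomes by their intervals, and that on 13 below it. The 19 intervals were not adjusted for their number.

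The 20 strongest members had pileups of 61 to 99. Of these, 10 lay in bodies of protein-coding genes, 10 outside such genes and 0 at their ends. Their median width was 244 bp (200 to 533 bp), their nearest WT peak was 538 to 2847 bp away, and for 19 of 20 it was the higher peak. The highest, with 99, lay in Sfi1 on chromosome 11 (3187978 to 3188226), which encodes a spindle-pole protein. Its nearest WT peak had a pileup of 115, and the shared peaks of the gene had a median relative log2 ratio of 0.50 over 12 pairs. The next, with 89, lay in H2-Eb1 (chromosome 17, 34309505 to 34309856), an MHC class II chain gene, 2176 bp from a WT peak of 111. The third, with 88, was 200 bp wide and lay 1967 bp from Lrrc25 on chromosome 8 (70614678 to 70614877).

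Other strong members are listed with their nearest protein-coding gene, which for some lay far away. One of pileup 68 (chromosome 1, 74373290 to 74373798) lay 1216 bp from Slc11a1, which encodes the phagosomal metal transporter NRAMP1. Both members at Cd82, a tetraspanin gene, were strong, with 63 (chromosome 2, 93454294 to 93454826) and 56 (93456519 to 93456838), and Cd82 held 0 clear WT-only peaks at either WT minimum. Rftn1, which encodes the lipid-raft protein raftlin, held one of 66 among 3 (chromosome 17, 50185496 to 50185723). Sema4b held one of 74, Efhd2 and Ndrg1 one of 62 each, Ubald1 one of 61, and Xylt1 one of 64. The members nearest to Frmd8 (86), Kcnrg (79), Vmp1 (77), Bicra (71), Tcp11l2 (71) and Ggta1 (62) lay outside protein-coding genes. In the same order, they were 8970, 65170, 1151, 1353, 1637 and 33220 bp from the gene. A pair of 76 and 66 lay 1161 bp apart on chromosome 6, over 152 kb from Klf14.

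Members at gene ends were led by one of pileup 56 at Rpl12, a ribosomal protein gene (chromosome 2, 32963537 to 32963740). Hspa1b, which encodes the inducible chaperone HSP70, had a member of 50 across its downstream end (chromosome 17, 34955950 to 34956581). That member was 632 bp wide and 2364 bp from a WT peak of 150. Rarg, a retinoic acid receptor gene, had one of 50, Tifab 49, Rdh5 45 and H2-Ab1 45. Further down were Trmt1 (43), Ensa (37), Mknk2 (36), Map4k4 (35), Acad12 (34) and Nudt16 (32). Atf3 had a pair, of 34 and 32. By position and strand, those at Rpl12, Rarg, Tifab, Rdh5, Ensa, Mknk2, Acad12, Nudt16 and Atf3 were also at the downstream end. A further member of 32 (chromosome 12, 70113130 to 70113415) lay across the downstream end of a predicted gene. It was also inside Nin, within 1000 bp of the upstream end of that gene. The strand of H2-Ab1, Trmt1 and Map4k4 is not given here.

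Several genes held more than 1 member. Within a gene and 10 kb on either side, 843 of 20665 protein-coding genes (4.08%) held a member, which is 5.53% of the 15252 genes with any Tle4cKO peak of pileup 18 or more. A single member was found at 729 genes, 2 at 84 and 3 or more at 30 (0.145%). Genes with 3 or more were long, with a median of 130 kb against 17.5 kb over all genes. They held a median of 24 Tle4cKO peaks of pileup 18 or more, against 7 at genes with 1 member. Of the 30, 28 held fewer clear WT-only peaks (pileup 25 or more) than members, and 7 held 0. With the WT minimum at 18, as for the members, 21 of the 30 held fewer and 5 held 0. Over all genes, 81 held 3 or more WT-only peaks at the minimum of 25 and 248 at 18. Counts of clear WT-only peaks at single genes and lists are at 25 unless stated. The genes with many members were chosen for that count, so the excess at them is no test.

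**Figure D4:**
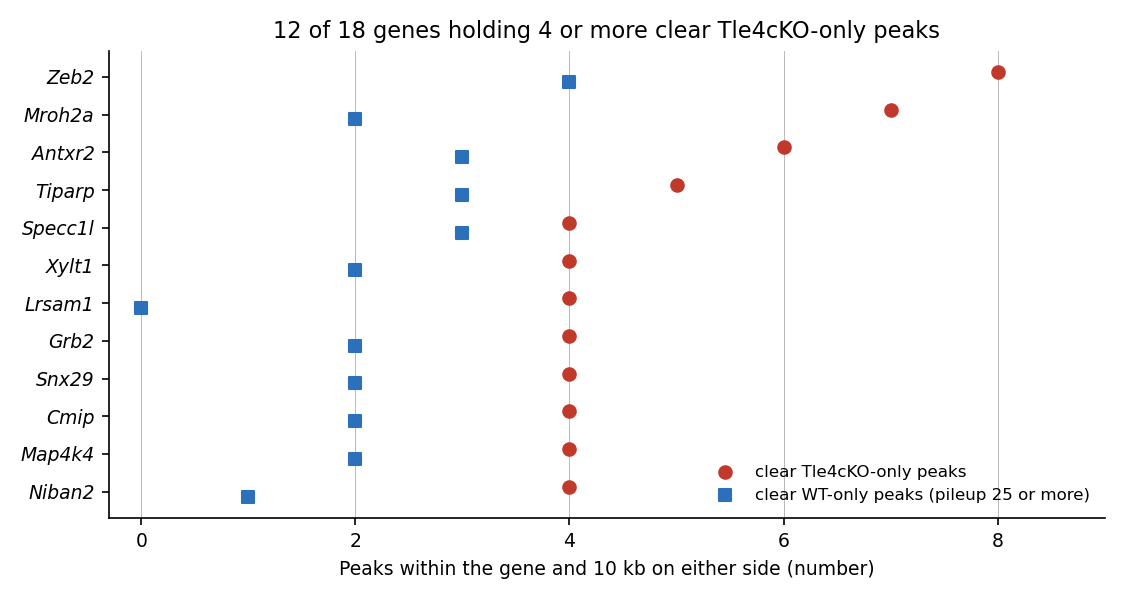
Number of clear Tle4cKO-only peaks (red circles) and clear WT-only peaks with a pileup of 25 or more (blue squares) within each gene and 10 kb on either side, for the 4 genes with 5 or more of the former and the 8 of 14 genes with 4 that had the highest summed pileup. Zeb2 held 8 and 4, and Lrsam1 held 4 and 0.

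Zeb2 held the most members. It encodes a zinc-finger repressor needed for the identity of tissue macrophages, and spans 44983512 to 45117442 on chromosome 2. All 8 members lay inside the gene and made up 16.3% of its 49 Tle4cKO peaks of pileup 18 or more. Ordered by position, their pileups were 18, 22, 23, 26, 27, 19, 19 and 20, so that none was strong. Of them, 4 lay in 7221 bp (45071153 to 45078373), where the Tle4cKO list had 5 peaks and the WT list had 1. The WT list held 4 clear WT-only peaks at the gene, or 5 with the minimum of 18, and its shared peaks had a median relative log2 ratio of -0.05 over 38 pairs.

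Mroh2a on chromosome 1 (88226991 to 88262289) held 7 of 22 (31.8%). Its members had pileups of 21 to 30, and 6 of them lay within 19980 bp. The first 4 inside the gene had 30, 28, 26 and 27 and were 203 to 251 bp wide. The shared peaks there had a higher ratio of Tle4cKO to WT pileup than pairs of like height, with a median relative log2 ratio of 0.37 over 14 pairs. The unadjusted ratio had a median of 0.741 over all pairs, so this need not mean a higher pileup than in WT. The seventh lay outside Mroh2a, in the overlapping Ugt1a genes, which encode glucuronosyltransferases.

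Antxr2, which encodes an anthrax toxin receptor that binds collagen, held 6 of 35 (17.1%), with pileups of 23, 20, 19, 22, 18 and 61 by position. The last (chromosome 5, 98019261 to 98019490) was 526 bp from a WT peak of 140. Tiparp, a target of the aryl hydrocarbon receptor that encodes a mono-ADP-ribosyltransferase, held 5 of 16 (31.2%), with pileups of 36, 34, 29, 19 and 30. At both genes 3 clear WT-only peaks were found, or 6 at Antxr2 and 3 at Tiparp with the minimum of 18, and the shared pairs had median relative log2 ratios of 0.12 and -0.08. Another 14 genes had 4 members each, and the 8 of them with the highest summed pileup are named here. Specc1l held members of 19 to 59, Xylt1 of 18 to 64, Lrsam1 of 18 to 56, Grb2 of 22 to 42, Snx29 of 19 to 40, Cmip of 18 to 45, Map4k4 of 18 to 35 and Niban2 of 18 to 33. Grb2 encodes the adaptor that links growth factor receptors to RAS. The one of 56 counted for Lrsam1 is the member at Rpl12. Lrsam1 and Niban2 are neighbours and share 3 members (chromosome 2, 32931425 to 32934907), a stretch in which the WT list had 0 peaks.

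Members were seldom grouped. Within 10 kb of each other lay 165 (17.3%), in 75 groups, of which 9 held 3 or more. Besides the groups at Zeb2 and Mroh2a, 4 members lay in 8488 bp of Zmiz1 (chromosome 14, 25543680 to 25552167), where Tle4cKO had 5 peaks and WT 1. Another 4 lay in 8748 bp of Slc7a11 (chromosome 3, 50368582 to 50377329), with 6 and 3. Slc7a11 encodes the cystine transporter of glutathione synthesis and held 0 clear WT-only peaks at a minimum of 25 and 3 at 18. Zmiz1 and Slc7a11 were picked out after their values were seen.

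**Figure D5:**
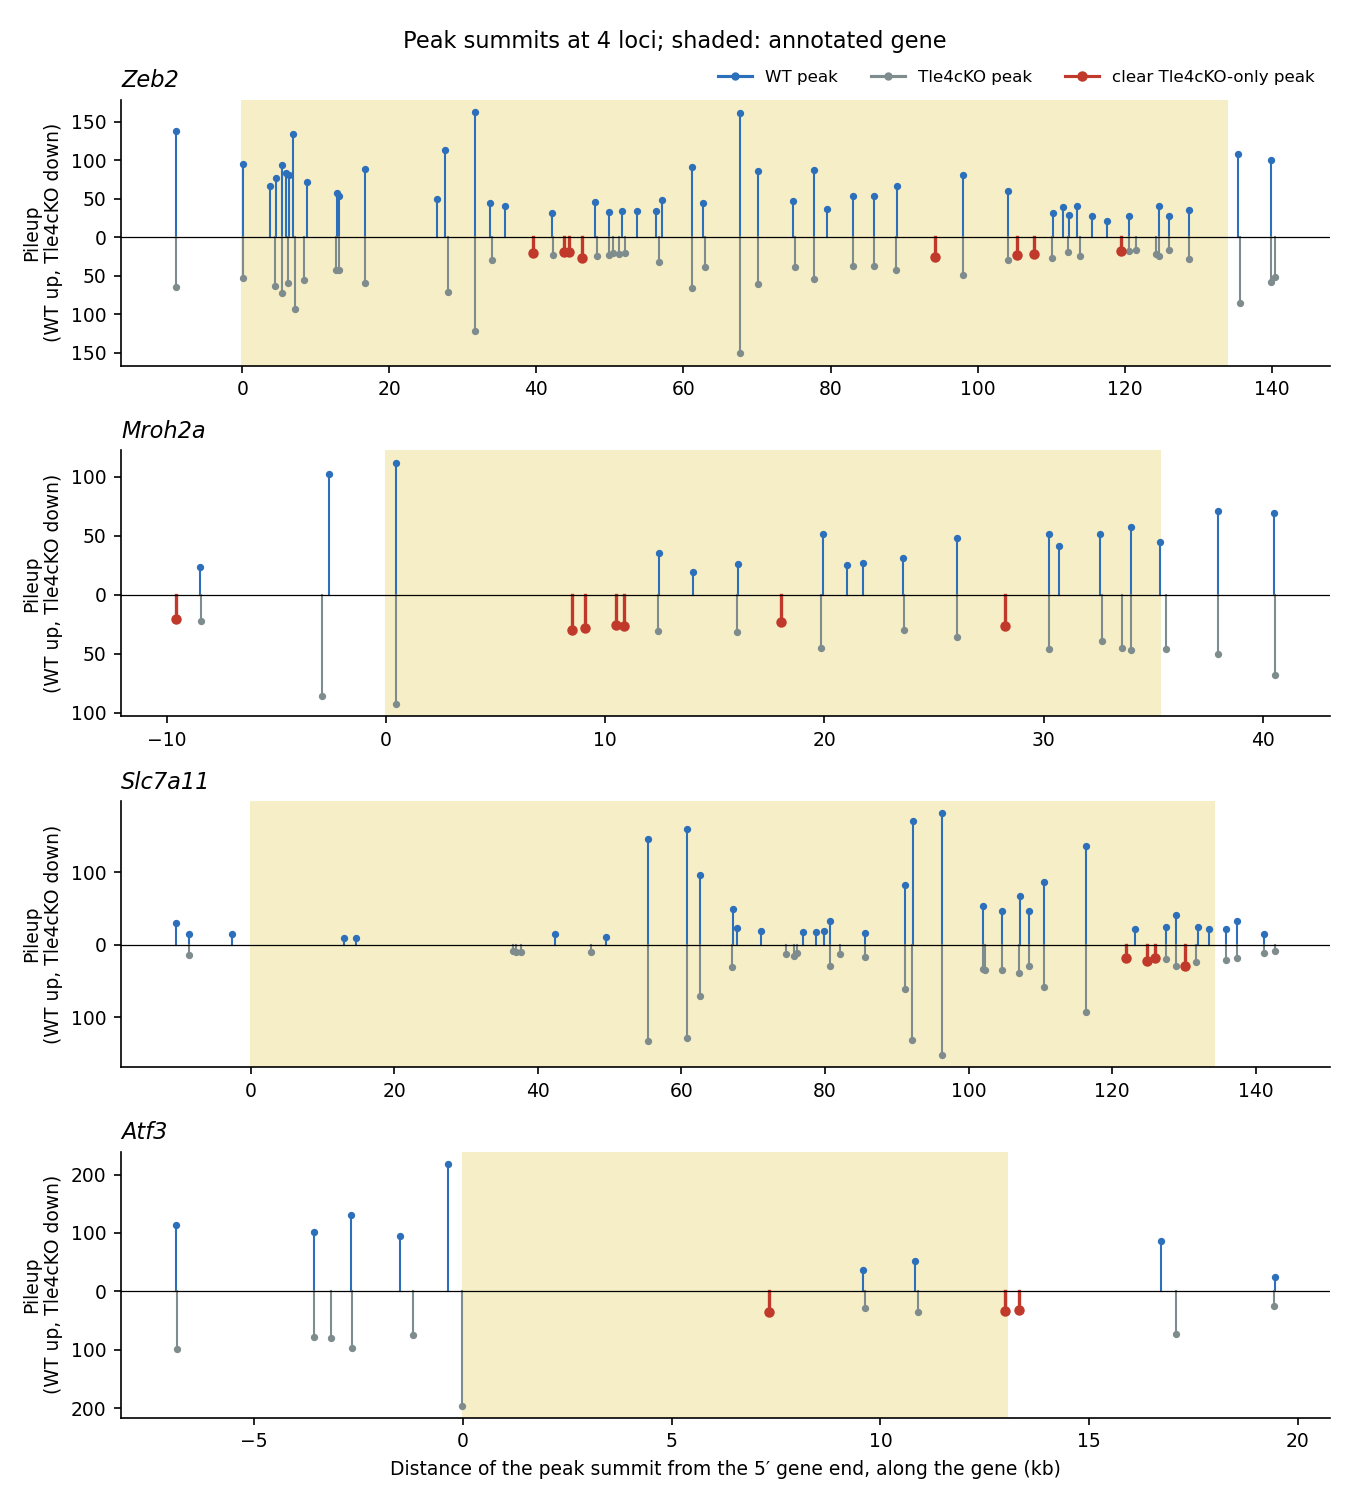
Summit pileups of WT peaks (blue, upward) and Tle4cKO peaks (grey, downward) by distance in kb from the 5′ gene end, along the gene, at Zeb2, Mroh2a, Slc7a11 and Atf3, with clear Tle4cKO-only peaks in red and the gene shaded. The red peaks have pileups of 18 to 35, and those at Slc7a11 fall within 8748 bp.

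Gene lists relevant to macrophages were then examined by the share of members among their Tle4cKO peaks of pileup 18 or more. Over all protein-coding genes with 10 kb on either side this share was 1.51%, 790 of 52450. Of 21 lists, 13 held a member and 8 held none. The lists were written with earlier results of these data known, and no list was tested.

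Macrophage transcription factors had 15 members among 335 peaks (4.48%, 2.73% to 7.26%), at 6 of 26 genes. Zeb2 supplied 8 of the 15. Irf8, an interferon regulatory factor needed for mononuclear phagocytes, had one of 46 inside the gene (chromosome 8, 120740526 to 120740799) and one of 24 beside it. Rxra, the partner of many nuclear receptors, had 18 and 21, Mitf 30 and Runx1 19. Spi1, which encodes PU.1 and was named after its value was seen, had 18. The same list held 25 clear WT-only peaks. AP-1 genes had 5 of 120 (4.17%, 1.79% to 9.38%), at 3 of 14 genes, and 2 clear WT-only peaks. Atf3, a stress-induced repressor, had 35, 34 and 32 (chromosome 1, 191169786 to 191176049) and 0 clear WT-only peaks. Its shared pairs had a median relative log2 ratio of 0.13 over 8 pairs. Mafk had 51 and Fos 41.

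Macrophage identity genes had 3 of 177 (1.69%, 0.578% to 4.86%), near the share over all genes. Csf1r, the CSF-1 receptor gene, had one of 53 outside the gene at 8755 bp (chromosome 18, 61096607 to 61096817), Cd63 one of 45 at the adjoining end of Rdh5, and Cd9 one of 20. Anti-inflammatory and IL-10 genes had 5 of 189 (2.65%, 1.14% to 6.04%). Il10, the anti-inflammatory cytokine of gut macrophages, had one of 19 at 6389 bp (chromosome 1, 131031359 to 131031759), Smad7, an inhibitor of TGF-beta signalling, 22 and 18, Il4ra 20 and Tgfbr2 19. Pro-inflammatory genes had 7 of 160 (4.38%, 2.14% to 8.75%), at 4 of 24 genes. Irak2, a kinase downstream of Toll-like receptors, had 43, 46 and 47 (chromosome 6, 113643291 to 113701494) and 0 clear WT-only peaks, and the last of these lay in the neighbouring gene Tatdn2. Nfkb1 had 22 and 18, Il1a 28 and Rel 21. The list as a whole held 11 clear WT-only peaks.

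Lipid handling genes had 7 of 142 (4.93%, 2.41% to 9.83%), at 4 of 16 genes, with 4 clear WT-only peaks. Abca1, the cholesterol efflux pump, had 25, 50 and 18, the strongest at 53124912 to 53125164 on chromosome 4. Nceh1, a cholesterol ester hydrolase, had 44, Scd1, a fatty acid desaturase, 27, and Npc1, the lysosomal cholesterol transporter, 23 and 25. The last pair lay in the neighbouring gene Rmc1. Antigen presentation genes had 4 of 129 (3.10%, 1.21% to 7.70%) and 11 clear WT-only peaks. Beside H2-Eb1 (89) these were one of 63 near Cd74 that lay in Tcof1, one of 45 at H2-Ab1 and one of 30 in H2-DMb1, which also counts for H2-DMb2. Phagocytosis genes had 4 of 224 (1.79%, 0.697% to 4.50%), with 40 at Cd36, 35 at Elmo1 and 27 each at Msr1 and Vav1. Atf3, Irak2 and Abca1 each supplied 3 of the members of their list, and peaks of 1 gene are not independent, which these intervals do not take into account.

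TLE corepressors and their partners had 0 of 102 peaks, with an interval reaching 3.63%, Wnt and TCF/LEF genes 0 of 91 (up to 4.05%) and matrix metalloproteinase genes 0 of 57 (up to 6.31%). These limits lie above the share over all genes, so a shortage was not detectable at this number of peaks. The 0 for TLE partners also depends on which genes that list holds. Runx1, Hes5 and Hdac7 belong to families named above as acting with TLE4 but are not in that list. Each had a member, of 19, 20 and 33, those of Hes5 and Hdac7 outside the gene. These genes were picked out after their values were seen. Notch genes had 1 of 162 (0.617%), of 25 beside Jag2, and clock genes 1 of 71, of 19 in Nampt. The 8 marker lists of other cell types had 4 members among 383 peaks (1.04%), at 4 of 99 genes. Ccr7 of the dendritic cell list had one of 36, and Vwf and Pecam1 of the endothelium had 28 and 18. Monocyte, neutrophil, eosinophil and mast cell, T and NK cell, and epithelium lists had 0. They held only 49, 43, 19, 29 and 19 peaks in that order, with intervals reaching 7.27% to 16.8%. A shortage was not detectable there either.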

How the data were processed

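ATAC-seq peak lists were analysed, 1 for each genotype, from libraries of cells from 2 pooled mice. The authors deposited, per the file headers, position, width, summit and pileup of each peak. Pileup, a deposited signal of summit height, took whole values from 7 upwards. MACS2 2.1.1, Bowtie2 2.2.5 and build mm10 are among the names in the submitters' processing notes, which give no roles. For calling thresholds, transposase shift, duplicate removal, depth and scaling, nothing is given in the sources used here.

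Distances were edge to edge. The 956 peaks found were the same 956 as with bedtools 2.31.1, and on simulated data 200 of 200 planted peaks inside the rule and 0 of 400 outside it were called. Genes came from a RefSeq table of GRCm38.p6 without exons, so introns and exons are not told apart. Location was set by protein-coding genes alone, as gene end (within 1000 bp of the upstream or downstream end), gene body or outside. Members called outside may thus lie in other annotated genes. Of 338 listed genes, 335 were protein-coding and on chromosomes 1 to 19. Intervals are 95% Wilson intervals (scipy 1.17.1) over peaks of 1 library and cover counting error only. Alternatives changed the pileup minimum, the distance, the gene window and the gene set.

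Named genes were those nearest to the 20 strongest members, the 12 with the most members (ties ordered by summed pileup), the gene ends of the 15 strongest such members and up to 5 per list. Predicted genes were skipped. Members and lists were chosen with earlier results of these data known. One listed gene is not reported here by name. The sequence of members away from promoters was not analysed here.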

Additional observations from a re-analysis of the deposited data

How the results depend on the processing

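No paired analysis was possible because each genotype has 1 library, and no library could be left out. The number of members followed the thresholds: 1735 at a pileup of 15 or more and 406 at 25 or more, 1479 when only overlapping WT peaks were barred, and 634 and 263 when none was allowed within 1000 bp or 2000 bp. A pileup of 20 gave 715, and a distance of 250 bp gave 1120. The median width was 298 bp at a pileup of 15 and 249 bp at 25, and between 258 and 274 bp under the other pileup and distance limits. The gene-end share was 3.03% within 500 bp of an end, 17.8% within 2500 bp and 10.8% with all annotated genes. The gene-body share was 53.9% with the 2500-bp window and lay between 60.6% and 64.4% under every other alternative tried. It was 64.4% with all annotated genes, so fewer members were then outside genes. Genes with 3 or more members numbered 67 and 64 with the looser pileup of 15 and with overlap only, 19 and 8 at pileups of 20 and 25, 16 and 5 at 1000 bp and 2000 bp, and 63 with 50 kb on either side. The WT-only count fell from 4893 to 2363 with the minimum of 25, an alternative added after the data were seen, as was placing peaks by their summits. Depth is unknown, so a peak missing from a list may lie just under its calling threshold.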

Other observations

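On chromosomes left out of the rule, the same limits of pileup and distance were met by 11 of 1292 Tle4cKO peaks on X (0.851%), with pileups of 19 to 40 and a median width of 230 bp. On Y they were met by 1 of 15, with a pileup of 22, and on the mitochondrial and unplaced sequences by 1 of 44, with a pileup of 43.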
